A study of Homo sapiens with 12 samples.

Results

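The genes described here form the amino acid response, a set of transcripts raised by the transcription factor ATF4 when cells run short of amino acids or meet other stress. The list holds 35 symbols that cover stress factors, serine and one-carbon enzymes and amino acid transporters, without the aminoacyl-tRNA synthetases. The brightest probe set was taken for each gene. Of the 35 genes, 33 were measured, among 11963 genes in all, and SESN2 and GPT2 were not analysed here. No filter on low values was applied, so each of the 33 was tested.

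In the integrated stress response, kinases such as GCN2, which senses uncharged tRNA, and PERK, which senses protein folding stress in the endoplasmic reticulum, phosphorylate the initiation factor eIF2. General translation then falls while ATF4 mRNA is translated more, so the amount of ATF4 protein is set largely at translation. ATF4 pairs with C/EBP proteins at composite DNA elements of genes for amino acid synthesis, amino acid uptake and stress signalling, and DDIT3, TRIB3 and PPP1R15A feed back on the pathway.

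The data are 12 Affymetrix arrays of K562, an established human leukaemia cell line that the labels call an AML line, with 1 array for each sample. Cells in all groups were held in medium without serum and given 100 ng/ml of recombinant Wnt3a, and RNA was taken at 8 h, so the response to Wnt3a itself was not measured. In the overexpression group, pEGFP-C2 carrying human CXXC5, a CXXC zinc finger gene, was introduced by nucleofection, a transient transfection; the empty vector group received pEGFP-C2 alone in the same way. In the knockdown group, a pLKO.1 lentivirus with shRNA against CXXC5 was stably integrated, and the scrambled shRNA group carried a lentiviral pLKO scrambled shRNA. Each group held 3 arrays. A pair of shRNA clones is named for the knockdown samples together, without saying which sample held which, and whether replicates were separate cultures is not given. The p-values therefore reflect only how far these arrays spread, and that spread may be technical. No probe set used here was paired with CXXC5, so the groups were not checked against its level.

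Expression is given on a log2 scale for each probe set, between 2.07 and 14.4, with array medians of 6.65 to 6.71. As a check of the label by probe brightness alone, all 10 measured K562 markers, GATA1 and TFRC among them, lay above the median gene. The 3 measured macrophage markers reached at most the 29.7th percentile. Of the 9 fibroblast or epithelial markers, EPCAM, KRT8 and KRT18 lay above the 90th percentile, and the median of the 9 was 5.87 with overexpression, against 5.88 with empty vector, and 6.05 with knockdown, against 6.02 with scrambled shRNA. Of the 5 lymphoid markers, CD3D lay at the 91.4th percentile and the others below the median gene. The part of these markers in the results was not tested. Scrambled shRNA replicate 3 stood apart in controls for RNA and labelling quality. The 3' minus 5' difference of the GAPDH control probe sets was 0.87 log2 there and 0.23 to 0.34 in the other 11 arrays. That of the ACTB control probe sets was 2.57 log2 there and 1.95 to 2.27 in the other 11, so it was wide in every array.

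To show which regulatory letters lie next to the genes described, promoters of 300 bases (250 before and 50 after the start of transcription, RefSeq, GRCh38.p14) were searched on both strands for TGATGNAA, the core of the C/EBP-ATF composite element, and for TGACGTCA, the cyclic AMP response element that ATF family dimers bind. RefSeq promoters matched 27 of the 33 members. Of these 27, 9 held TGATGNAA (33.3%), while it was in 3.43% of the 9563 measured genes with a promoter. Counted by promoter, it was in 9 of the 48 promoters of members, against 3.62% of all 35116 promoters. TGACGTCA was in 1 of the 27, PPP1R15A, and in 3.59% of the measured genes with a promoter. By promoter it was in 1 of the 48, against 1.85% of all. No member held both motifs. The whole promoters are printed for ASNS, ATF3, PPP1R15A and GDF15: ASNS is the textbook ATF4 target, ATF3 and PPP1R15A hold a match and differed between groups, and GDF15 had the widest span of group means and holds neither motif. Capitals mark the matches, and each is read 5' to 3' on the strand of the gene.
ASNS, chr7:97872359-97872658, minus strand: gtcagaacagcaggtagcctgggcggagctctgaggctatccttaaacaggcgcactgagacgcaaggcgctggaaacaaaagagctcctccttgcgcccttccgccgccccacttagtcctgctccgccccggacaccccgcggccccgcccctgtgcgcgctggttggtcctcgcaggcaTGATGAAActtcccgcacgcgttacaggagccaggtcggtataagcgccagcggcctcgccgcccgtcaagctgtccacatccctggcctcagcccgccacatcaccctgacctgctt
ATF3, chr1:212565157-212565456, plus strand: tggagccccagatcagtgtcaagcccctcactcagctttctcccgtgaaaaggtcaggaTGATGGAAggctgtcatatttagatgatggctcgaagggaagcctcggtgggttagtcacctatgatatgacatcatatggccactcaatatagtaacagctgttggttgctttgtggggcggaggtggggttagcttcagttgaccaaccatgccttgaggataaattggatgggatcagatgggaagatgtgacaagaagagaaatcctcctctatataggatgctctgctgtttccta
PPP1R15A, chr19:48872171-48872470, plus strand: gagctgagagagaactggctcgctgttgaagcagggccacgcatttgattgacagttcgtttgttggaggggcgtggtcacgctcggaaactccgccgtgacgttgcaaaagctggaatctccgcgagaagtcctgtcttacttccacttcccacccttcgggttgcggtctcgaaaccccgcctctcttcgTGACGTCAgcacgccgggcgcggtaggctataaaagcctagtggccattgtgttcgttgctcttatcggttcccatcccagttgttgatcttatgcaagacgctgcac
GDF15, chr19:18385908-18386207, plus strand: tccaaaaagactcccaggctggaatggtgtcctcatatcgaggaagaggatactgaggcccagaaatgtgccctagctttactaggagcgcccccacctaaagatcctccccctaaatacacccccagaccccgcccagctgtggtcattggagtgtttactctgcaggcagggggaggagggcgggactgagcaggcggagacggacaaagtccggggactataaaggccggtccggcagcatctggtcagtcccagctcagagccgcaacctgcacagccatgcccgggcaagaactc
Counted from the start of transcription, the ASNS match begins at base -68, the ATF3 match at -191 and the PPP1R15A match at -58. Second RefSeq starts of ASNS and ATF3 held neither motif. Of the other members with TGATGNAA, 5 held TGATGCAA or its reverse complement TTGCATCA, and windows of 30 bases are printed for these so that the flanks can be compared.
BCAT1, chr12:24949131-24949160, minus strand: tgtcttcctgcTGATGCAAtccgctaggtc
CEBPG, chr19:33374060-33374089, plus strand: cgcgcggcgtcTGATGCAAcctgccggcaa
CHAC1, chr15:40953251-40953280, plus strand: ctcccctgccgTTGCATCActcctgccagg
SLC1A4, chr2:64989381-64989410, plus strand: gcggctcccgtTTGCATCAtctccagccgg
SLC1A5, chr19:46784893-46784922, minus strand: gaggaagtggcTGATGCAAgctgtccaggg
The remaining matches were in SLC3A2 and SLC7A1. In scrambled shRNA minus empty vector (limma, adjusted p under 0.05), 2 of the 9 members with the motif rose (ATF3 and SLC7A1) and 0 fell, and of the 18 members with a promoter and no match 9 rose and 2 fell. Of all genes tested, 16.2% rose and 15.3% fell in that comparison. A match is only a run of letters in these windows, and factor binding was not measured.

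The members were mostly highest in the lentiviral groups: the group mean was highest with knockdown for 15 members and with scrambled shRNA for 16, against 1 with overexpression and 1 with empty vector. Over all genes these shares were 21.7% with knockdown, 33.9% with scrambled shRNA, 21.0% with overexpression and 23.5% with empty vector. The lowest group mean was that of overexpression for 14 members (42.4%) and of empty vector for 13 (39.4%), against 22.2% and 28.6% of all genes. Lentiviral and nucleofected cells differ in vector, in delivery and in stable against transient introduction, and these cannot be told apart. In RNA from whole cultures, fewer cells of a type and less RNA per cell cannot be told apart either. The span between a member's highest and lowest group means had a median of 0.339 log2, against 0.247 over all genes, and exceeded 0.5 for 9 members of 33, against 1315 of the 11963 genes.

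**Figure D1:**
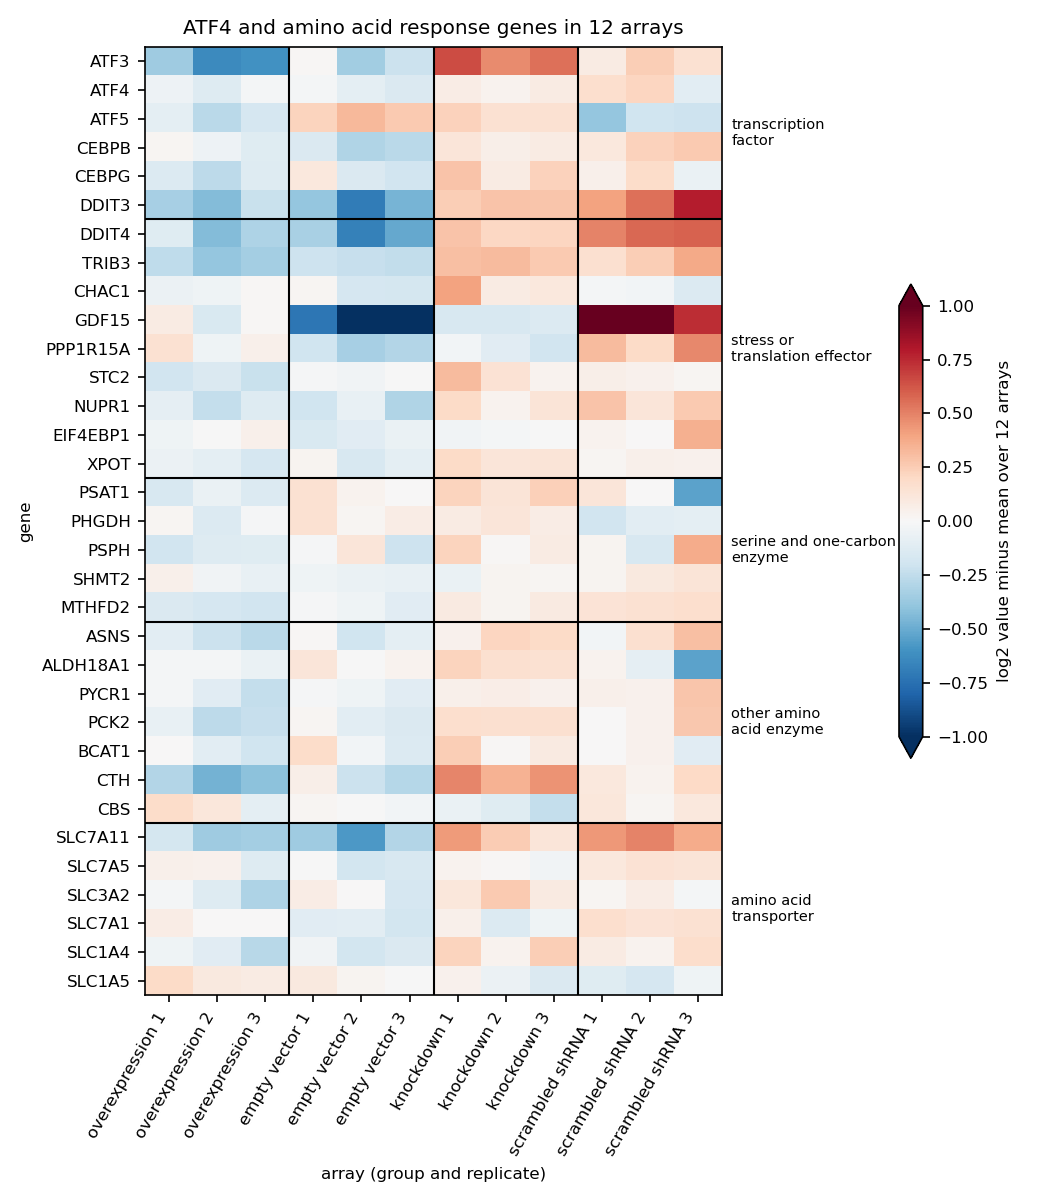
Log2 value of each of the 33 measured genes minus its mean over the 12 arrays, with genes in rows by role and arrays in columns by group; colours saturate beyond 1 log2 unit either way. GDF15, DDIT3, DDIT4 and SLC7A11 are higher in all 6 knockdown and scrambled shRNA arrays than in all 3 empty vector arrays, while most enzyme rows stay pale.

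With scrambled shRNA, 14 of the 33 members were higher than with empty vector and 2 were lower (limma, Benjamini-Hochberg adjusted p under 0.05). That is 48.5% of members, against 31.5% of all genes (16.2% higher and 15.3% lower). With knockdown, 9 members were higher than with empty vector and 0 were lower, which is 27.3%, against 4.54% of all genes (3.02% higher and 1.52% lower); at unadjusted p under 0.05 the counts were 17 and 0, against 1665 above 0 and 1077 below 0 (22.9%) of the 11963 genes. These comparisons share the empty vector arrays. The median log2 change over the members was 0.18 with scrambled shRNA and 0.18 with knockdown, against 0.02 and 0.01 over all genes. Without empty vector replicate 2 the first count was 12 (10 higher, 2 lower) and the second was 6 (6 higher, 0 lower). Over all genes 2593 and 123 were called there, against 3768 and 543 with every array. Without scrambled shRNA replicate 3 the first count was 14 (12 higher, 2 lower), where 3185 of all genes were called.

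The constructs were meant to alter the amount of CXXC5, which was not measured here. Overexpression was set against empty vector, and knockdown against scrambled shRNA. With overexpression, GDF15 and PPP1R15A rose and ATF5 fell relative to empty vector, 3 of 33 members or 9.09%, against 6.98% of all genes (3.61% higher and 3.37% lower). With knockdown, ATF3, ATF5, PHGDH, ALDH18A1 and CTH rose and GDF15, DDIT4 and PPP1R15A fell relative to scrambled shRNA, 8 of 33 members or 24.2%, against 14.0% of all genes (8.79% higher and 5.22% lower). The median log2 change over the members was -0.03 with overexpression and 0.02 with knockdown, against 0.00 and -0.01 over all genes. The knockdown count moved with single arrays, and so did the count over all genes, which was 1677 with every array. It was 3 (1 rose, 2 fell) without knockdown replicate 3, where 1134 of all genes were called. Without knockdown replicate 1 it was 4 (1 rose, 3 fell), with 1146 of all genes. Without knockdown replicate 2 it was 5 (3 rose, 2 fell), with 1296. Without scrambled shRNA replicate 2 it was 4 (2 rose, 2 fell), with 1226. Without scrambled shRNA replicate 3 it was 6 (4 rose, 2 fell), with 1474. The split of the members also turned with the scaling, to 3 up and 6 down after either quantile normalization or median centring. Over all genes 1783 and 1735 were called after these scalings. The log2 changes had opposite signs in these comparisons, which share no arrays, for 28 members (84.8%), against 69.6% of all genes.

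**Figure D2:**
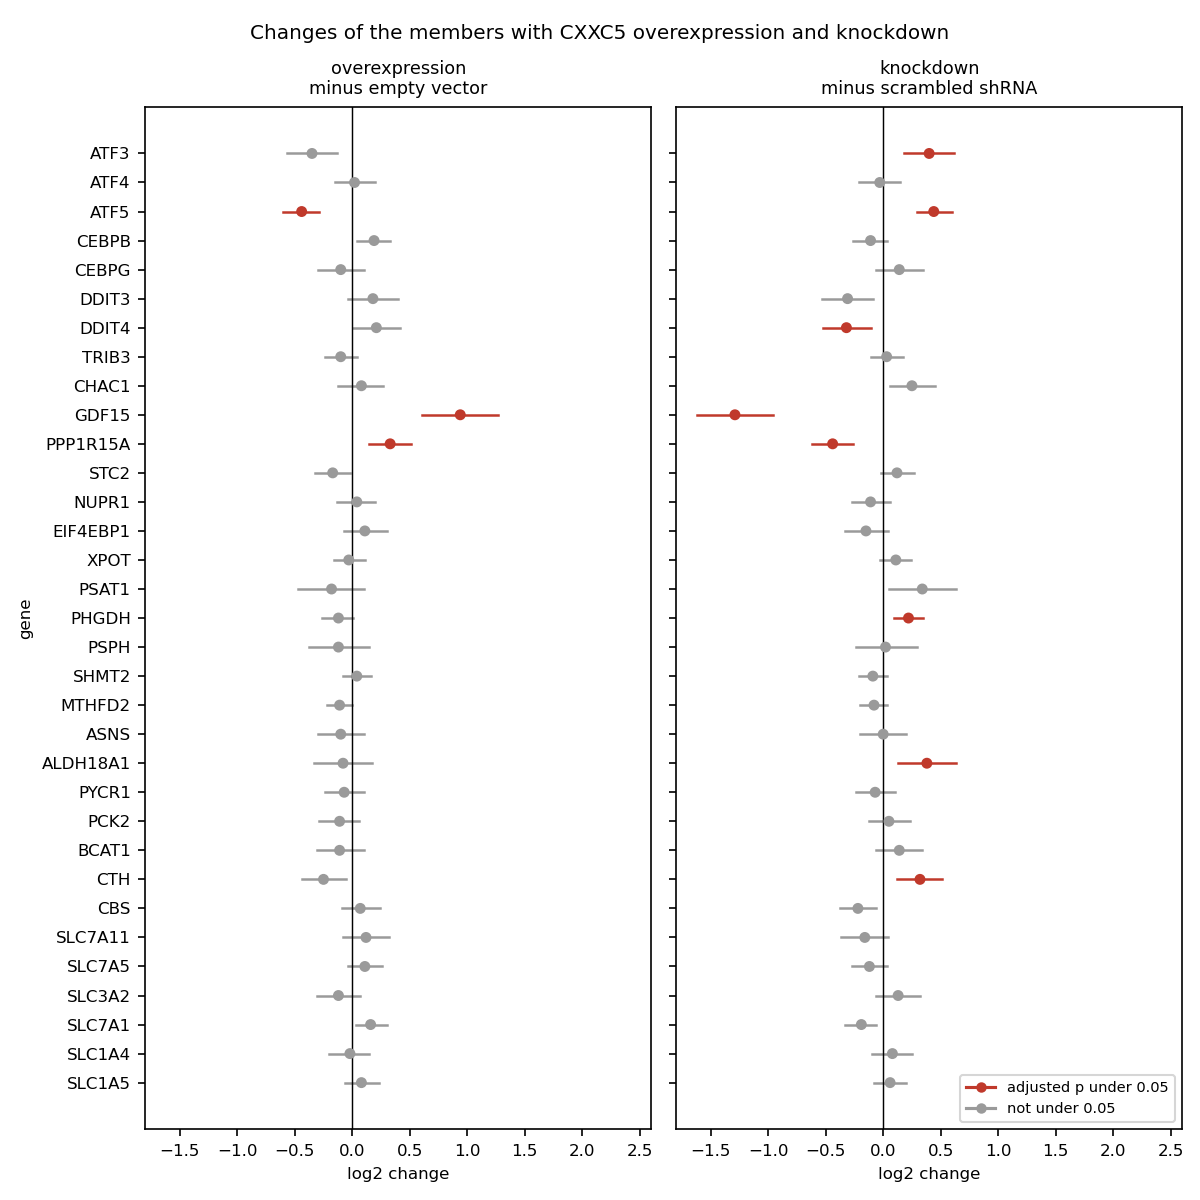
Log2 change of each member with its 95% interval, on the left for overexpression minus empty vector and on the right for knockdown minus scrambled shRNA; red marks adjusted p under 0.05. GDF15 and PPP1R15A lie right of 0 on the left and left of 0 on the right, and ATF5 does the reverse.

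Among the transcription factors, the ATF4 mRNA itself was nearly level, with group means between 11.91 and 12.09. ATF4 read 11.95, 11.87 and 11.98 with overexpression, against 11.98, 11.90 and 11.85 with empty vector, and 12.07, 12.03 and 12.08 with knockdown, against 12.17, 12.21 and 11.89 with scrambled shRNA. The 3 knockdown arrays lay above the 3 empty vector arrays, while the overexpression arrays overlapped those of empty vector and the scrambled shRNA arrays overlapped every other group. Its log2 change was 0.02 (95% interval -0.15 to 0.20) with overexpression, -0.03 (95% interval -0.21 to 0.15) with knockdown against scrambled shRNA and 0.15 (95% interval -0.03 to 0.32) with knockdown against empty vector, none past the threshold. In scrambled shRNA minus empty vector it was 0.18 (SE 0.0811, adjusted p = 0.116), and 0.28 (adjusted p = 0.00761) without scrambled shRNA replicate 3, which had the lowest ATF4 value of its group and the wide GAPDH difference given above.

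DDIT3, which encodes the stress factor CHOP, separated lentiviral from nucleofected cells. DDIT3 read 9.47, 9.37 and 9.58 with overexpression, against 9.42, 9.11 and 9.34 with empty vector, and 10.05, 10.09 and 10.08 with knockdown, against 10.21, 10.36 and 10.59 with scrambled shRNA. All 6 lentiviral arrays lay above all 6 nucleofected arrays, and the knockdown arrays lay below the scrambled shRNA arrays. Its log2 change from empty vector was 1.10 (SE 0.102, 2.14-fold, adjusted p = 1.92e-05) with scrambled shRNA and 0.78 (SE 0.102, 1.72-fold, adjusted p = 0.0021) with knockdown. Knockdown against scrambled shRNA gave -0.31 (SE 0.102, adjusted p = 0.0618) and overexpression 0.18 (SE 0.102, adjusted p = 0.351), neither past the threshold.

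ATF3, an immediate stress-response factor that can repress and activate transcription, had a different order, with knockdown highest and overexpression lowest. ATF3 read 7.78, 7.50 and 7.53 with overexpression, against 8.15, 7.79 and 7.92 with empty vector, and 8.79, 8.61 and 8.69 with knockdown, against 8.22, 8.38 and 8.29 with scrambled shRNA. None of the 4 groups overlapped another. Relative to empty vector it rose by 0.74 (SE 0.102, 1.68-fold, adjusted p = 0.00312) with knockdown and by 0.35 (SE 0.102, adjusted p = 0.0216) with scrambled shRNA. Knockdown also exceeded scrambled shRNA by 0.40 (SE 0.102, adjusted p = 0.0216), which did not pass without knockdown replicate 1 or 3 or without scrambled shRNA replicate 1 or 3. The scrambled shRNA call ended without empty vector replicate 2 or 3 or scrambled shRNA replicate 2 or 3. With overexpression the value was -0.35 (SE 0.102, adjusted p = 0.062), with groups that did not overlap but no call.

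ATF5, a close relative of ATF4, was, with PHGDH, 1 of the 2 members that passed the test as lower with scrambled shRNA than with empty vector. ATF5 read 7.30, 7.13 and 7.23 with overexpression, against 7.62, 7.72 and 7.66 with empty vector, and 7.63, 7.55 and 7.55 with knockdown, against 7.01, 7.20 and 7.19 with scrambled shRNA. The overexpression and scrambled shRNA arrays were low and overlapped each other, the empty vector and knockdown arrays were high and overlapped each other, and the low and high arrays did not overlap. ATF5 fell by 0.44 with overexpression (SE 0.0694, adjusted p = 0.00248) and rose by 0.44 (SE 0.0694, adjusted p = 0.00138) with knockdown; both calls held without each of the 6 arrays compared. In scrambled shRNA minus empty vector it stood at -0.53 (SE 0.0694, adjusted p = 0.000204). Knockdown minus empty vector gave -0.09 (95% interval -0.24 to 0.06). A second ATF5 probe set gave -0.56 with overexpression and 0.56 with knockdown against scrambled shRNA, while the dimmest one gave 0.05 and -0.03.

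The C/EBP partners differed from each other. CEBPB, which forms heterodimers with ATF4, read 10.44, 10.37 and 10.30 with overexpression, against 10.27, 10.12 and 10.15 with empty vector, and 10.54, 10.48 and 10.50 with knockdown, against 10.52, 10.65 and 10.68 with scrambled shRNA. All 6 lentiviral arrays lay above all 6 nucleofected ones, knockdown and scrambled shRNA overlapped, and the overexpression arrays lay above the empty vector arrays. CEBPB was higher with scrambled shRNA than with empty vector by 0.44 (SE 0.0666, adjusted p = 0.000553) and with knockdown by 0.32 (SE 0.0666, adjusted p = 0.0217); the knockdown call ended without any of 5 of the 6 arrays compared (all but empty vector replicate 1). CEBPG, another heterodimer partner, had no call, with a log2 change of 0.27 (95% interval 0.07 to 0.48) in knockdown minus empty vector and -0.10 (95% interval -0.30 to 0.10) with overexpression.

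Among the stress and translation effectors, GDF15 varied most. GDF15 encodes a secreted stress cytokine of the TGF-beta superfamily. GDF15 read 11.04, 10.81 and 10.97 with overexpression, against 10.24, 9.86 and 9.90 with empty vector, and 10.80, 10.80 and 10.82 with knockdown, against 12.18, 12.40 and 11.70 with scrambled shRNA. The overexpression arrays lay above the empty vector arrays, the knockdown arrays lay above empty vector and overlapped overexpression, and the scrambled shRNA arrays lay above all others. It rose by 0.94 (SE 0.151, 1.92-fold, adjusted p = 0.00297) with overexpression and fell by 1.29 (SE 0.151, 2.44-fold lower, adjusted p = 0.000223) with knockdown against scrambled shRNA, and both calls held without each of the 6 arrays compared. Scrambled shRNA exceeded empty vector by 2.09 (SE 0.151, 4.27-fold, adjusted p = 2.61e-06). Knockdown also exceeded empty vector, by 0.81 (SE 0.151, adjusted p = 0.0153), which did not pass without empty vector replicate 2 or 3 or knockdown replicate 2 or 3, so the direction with knockdown differed between the controls. The x_at suffix of this probe set marks it as one whose probes can match other transcripts. The other GDF15 probe set, with a mean of 4.97 log2 against 10.96, gave 0.36 with overexpression, -0.29 with knockdown against scrambled shRNA and 0.31 for scrambled shRNA minus empty vector, none past the threshold.

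PPP1R15A encodes GADD34, the phosphatase subunit that reverses eIF2 phosphorylation. PPP1R15A read 8.61, 8.42 and 8.51 with overexpression, against 8.26, 8.13 and 8.17 with empty vector, and 8.43, 8.35 and 8.27 with knockdown, against 8.78, 8.65 and 8.94 with scrambled shRNA. Its order was that of GDF15: scrambled shRNA was highest, empty vector lowest, and the overexpression arrays did not overlap the empty vector arrays. It rose by 0.33 (SE 0.0817, adjusted p = 0.0324) with overexpression, which did not pass without empty vector replicate 2 or 3 or overexpression replicate 1 or 3. With knockdown it stood at -0.44 (SE 0.0817, adjusted p = 0.00373) against scrambled shRNA and at 0.16 (95% interval -0.01 to 0.34) against empty vector, and scrambled shRNA exceeded empty vector by 0.60 (SE 0.0817, adjusted p = 0.000261). A second probe set gave 0.25 with overexpression (no call) and -0.45 with knockdown against scrambled shRNA.

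DDIT4 encodes REDD1, a stress-induced inhibitor of mTORC1. DDIT4 read 11.99, 11.68 and 11.80 with overexpression, against 11.79, 11.44 and 11.60 with empty vector, and 12.40, 12.32 and 12.33 with knockdown, against 12.61, 12.69 and 12.70 with scrambled shRNA. All 6 lentiviral arrays lay above all 6 nucleofected arrays. Scrambled shRNA exceeded empty vector by 1.06 (SE 0.0946, 2.08-fold, adjusted p = 1.56e-05) and knockdown exceeded it by 0.74 (SE 0.0946, 1.67-fold, adjusted p = 0.0019). Knockdown fell below scrambled shRNA, at -0.32 (SE 0.0946, adjusted p = 0.0432), but this call ended whichever 1 of the 6 arrays compared was left out.

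TRIB3, a pseudokinase that binds ATF4 and restrains it, was split between lentiviral and nucleofected groups in the same way. TRIB3 read 10.25, 10.12 and 10.17 with overexpression, against 10.30, 10.28 and 10.26 with empty vector, and 10.81, 10.82 and 10.77 with knockdown, against 10.67, 10.75 and 10.89 with scrambled shRNA. Its 6 lentiviral arrays lay above its 6 nucleofected arrays, and knockdown and scrambled shRNA overlapped. Its log2 change from empty vector was 0.49 (SE 0.0644, adjusted p = 0.000219) with scrambled shRNA and 0.52 (SE 0.0644, adjusted p = 0.00157) with knockdown. With overexpression it was -0.10 (95% interval -0.24 to 0.04) and with knockdown against scrambled shRNA 0.03 (95% interval -0.11 to 0.17), neither past the threshold.

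CHAC1 encodes an enzyme that degrades glutathione and is a sensitive reporter of ATF4 activity in many cells. CHAC1 read 7.14, 7.15 and 7.21 with overexpression, against 7.22, 7.03 and 7.02 with empty vector, and 7.60, 7.28 and 7.30 with knockdown, against 7.18, 7.17 and 7.06 with scrambled shRNA. The 3 knockdown arrays lay above all others, with replicate 1 highest, and the scrambled shRNA arrays overlapped both nucleofected groups. No comparison passed the threshold; the log2 change was 0.05 (95% interval -0.15 to 0.24) for scrambled shRNA minus empty vector and 0.30 (95% interval 0.11 to 0.50) for knockdown minus empty vector. Its promoter holds TTGCATCA, as printed above.

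NUPR1, a small stress-induced chromatin protein, read 5.54, 5.39 and 5.50 with overexpression, against 5.43, 5.55 and 5.33 with empty vector, and 5.82, 5.66 and 5.76 with knockdown, against 5.91, 5.75 and 5.89 with scrambled shRNA. Both lentiviral groups lay above both nucleofected groups. The signal was dim: its mean over all arrays, 5.63 log2, lay at the 29.4th percentile of genes. The macrophage marker MARCO lay at the 29.7th percentile. Whether NUPR1 lay above background was not tested. NUPR1 was also absent from the alternative that dropped the dimmest genes, so its calls were not tested there. It was higher than with empty vector by 0.41 (SE 0.0761, adjusted p = 0.00178) with scrambled shRNA and by 0.31 (SE 0.0761, adjusted p = 0.0415) with knockdown; the second call ended whichever 1 of the 6 arrays compared was left out, and after quantile normalization. EIF4EBP1, which encodes the translation repressor 4E-BP1, read 10.51, 10.55 and 10.61 with overexpression, against 10.40, 10.44 and 10.49 with empty vector, and 10.52, 10.54 and 10.55 with knockdown, against 10.59, 10.56 and 10.91 with scrambled shRNA. Scrambled shRNA replicate 3 stood highest, and the empty vector arrays lay below both lentiviral groups. Its scrambled shRNA minus empty vector value of 0.24 (SE 0.0834, adjusted p = 0.0439) became 0.13 (adjusted p = 0.0985) without that array, and this call also ended without any of the 3 empty vector replicates. STC2, a secreted glycoprotein, read 6.43, 6.48 and 6.40 with overexpression, against 6.61, 6.59 and 6.62 with empty vector, and 6.94, 6.77 and 6.66 with knockdown, against 6.68, 6.67 and 6.64 with scrambled shRNA. The overexpression arrays were lowest and the empty vector arrays next, each apart from the other groups, while the knockdown and scrambled shRNA arrays overlapped. STC2 and XPOT, the tRNA exporter, passed no test between any pair of groups compared. In knockdown minus empty vector they stood at 0.18 (95% interval 0.03 to 0.33) and 0.22 (95% interval 0.09 to 0.36).

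**Figure D3:**
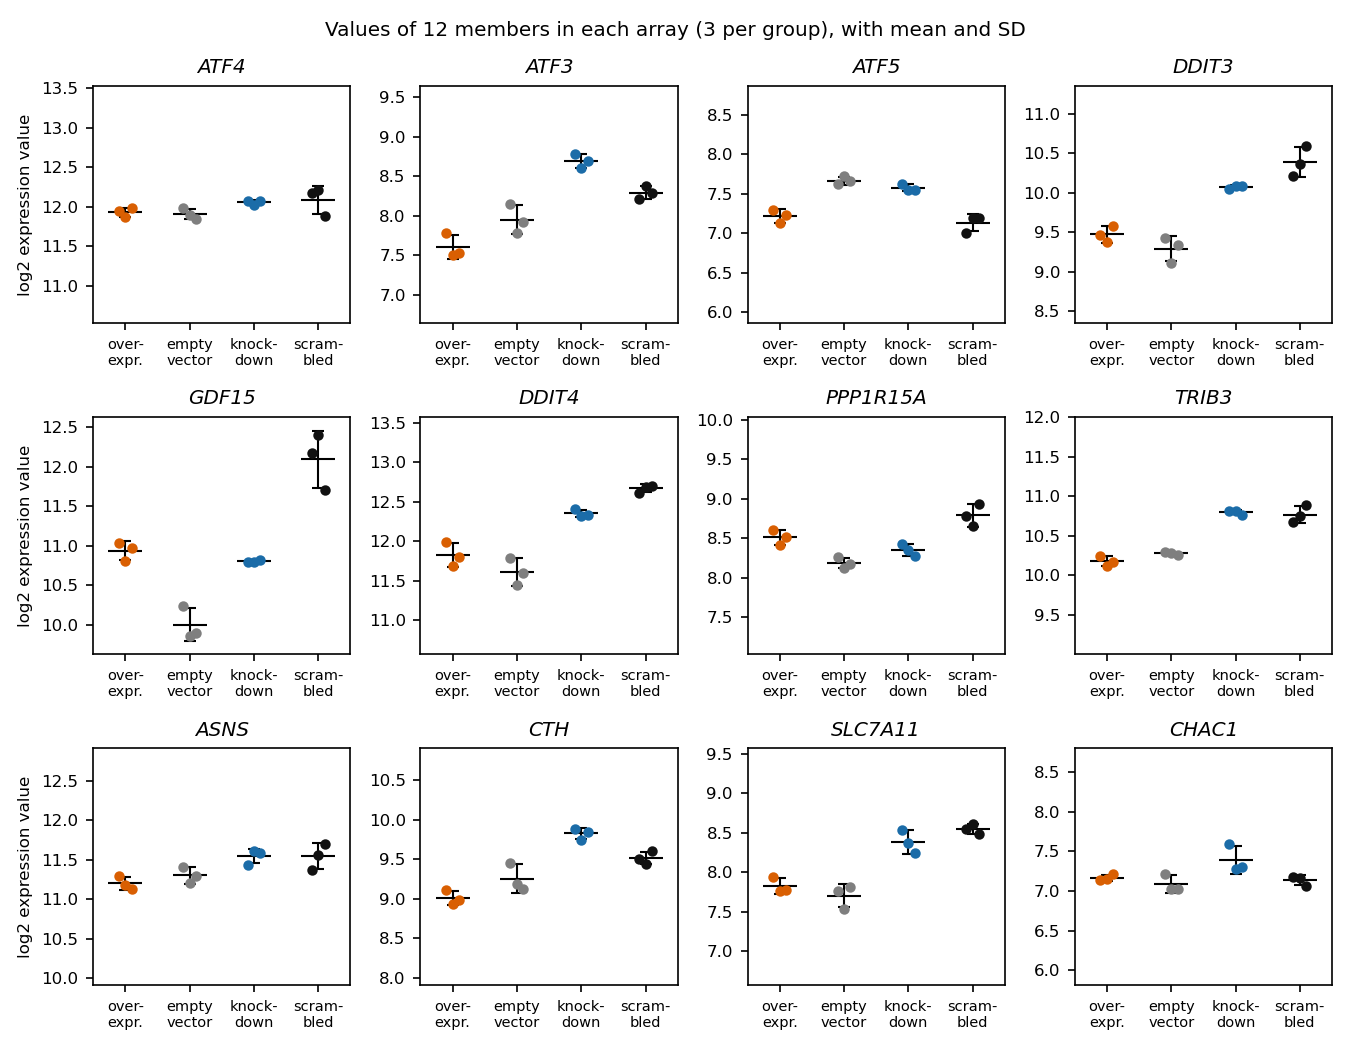
Log2 expression value of 12 members in each array, with 3 arrays per group as points and the group mean and SD as bars; each panel spans 3 log2 units, so that steps can be compared between genes. DDIT3, DDIT4, TRIB3 and SLC7A11 are higher in the knockdown and scrambled shRNA arrays than in the overexpression and empty vector arrays, GDF15 and PPP1R15A are highest with scrambled shRNA and lowest with empty vector, and ATF4 is nearly level.

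Of the 5 serine and one-carbon enzymes, PHGDH and MTHFD2 passed a test. PHGDH, the first enzyme of serine synthesis, read 8.67, 8.51 and 8.64 with overexpression, against 8.80, 8.67 and 8.72 with empty vector, and 8.73, 8.77 and 8.72 with knockdown, against 8.46, 8.54 and 8.55 with scrambled shRNA. The scrambled shRNA arrays lay below those of empty vector and of knockdown, which overlapped each other. Knockdown exceeded scrambled shRNA by 0.22 (SE 0.0616, adjusted p = 0.0334), which did not pass after quantile normalization or median centring or without 5 of the 6 arrays in turn (all but scrambled shRNA replicate 3). Scrambled shRNA minus empty vector gave -0.21 (SE 0.0616, adjusted p = 0.0208), a call that also ended after either scaling and without empty vector replicate 1 or scrambled shRNA replicate 1.

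MTHFD2, the mitochondrial one-carbon enzyme, read 12.26, 12.23 and 12.21 with overexpression, against 12.39, 12.36 and 12.29 with empty vector, and 12.49, 12.43 and 12.49 with knockdown, against 12.54, 12.55 and 12.57 with scrambled shRNA. The groups lay in the order overexpression, empty vector, knockdown and scrambled shRNA from low to high, with no overlap. Scrambled shRNA exceeded empty vector by 0.21 (SE 0.0522, adjusted p = 0.01); overexpression gave -0.11 (95% interval -0.22 to 0.00) and knockdown against scrambled shRNA -0.08 (95% interval -0.20 to 0.03), neither past the threshold. PSAT1 and PSPH, which complete serine synthesis, and SHMT2, which passes the serine carbon to folate, had no call. PSAT1 stood at 0.34 (SE 0.131, adjusted p = 0.113) with knockdown against scrambled shRNA, and at 0.14 (adjusted p = 0.23) without scrambled shRNA replicate 3, where it read 6.61 against 7.27 and 7.15 in the other scrambled shRNA arrays.

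Among the other enzymes, ASNS, which makes asparagine and is widely used as a readout of ATF4, did not pass in any comparison. ASNS read 11.29, 11.18 and 11.13 with overexpression, against 11.41, 11.20 and 11.30 with empty vector, and 11.44, 11.61 and 11.59 with knockdown, against 11.37, 11.56 and 11.70 with scrambled shRNA. The overexpression arrays lay below both lentiviral groups, and the empty vector arrays lay below the knockdown arrays and overlapped the scrambled shRNA arrays. Its log2 change from empty vector was 0.24 (SE 0.0907, adjusted p = 0.0588) with scrambled shRNA and 0.24 (SE 0.0907, adjusted p = 0.142) with knockdown. With knockdown against scrambled shRNA the 95% interval was -0.20 to 0.20, and with overexpression the value was -0.10 (95% interval -0.30 to 0.10).

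CTH, the cystathionine lyase that makes cysteine, gave the widest span of group means among the enzymes. CTH read 9.11, 8.93 and 8.99 with overexpression, against 9.46, 9.19 and 9.12 with empty vector, and 9.89, 9.75 and 9.85 with knockdown, against 9.51, 9.44 and 9.60 with scrambled shRNA. The overexpression arrays were lowest and the knockdown arrays highest, each apart from every other group, while the empty vector and scrambled shRNA arrays overlapped. Knockdown exceeded empty vector by 0.57 (SE 0.0903, 1.49-fold, adjusted p = 0.00631), a call that held without each of the 6 arrays compared, and exceeded scrambled shRNA by 0.32 (SE 0.0903, adjusted p = 0.037), which did not pass without knockdown replicate 1 or 3 or without scrambled shRNA replicate 1 or 2. Scrambled shRNA minus empty vector gave 0.26 (SE 0.0903, adjusted p = 0.0478), which did not pass without 5 of the 6 arrays in turn (all but empty vector replicate 1). The second CTH probe set gave 0.68 with knockdown against scrambled shRNA, 0.43 (no call) for knockdown minus empty vector and -0.25 (no call) for scrambled shRNA minus empty vector, so the probe sets differ in sign in the comparison of controls.

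ALDH18A1, the first enzyme of proline synthesis, read 8.74, 8.74 and 8.69 with overexpression, against 8.88, 8.75 and 8.79 with empty vector, and 8.98, 8.92 and 8.91 with knockdown, against 8.79, 8.67 and 8.22 with scrambled shRNA. Its lowest value was in scrambled shRNA replicate 3, and the knockdown arrays lay above all others. Knockdown exceeded scrambled shRNA by 0.38 (SE 0.113, adjusted p = 0.0438), and by 0.21 (adjusted p = 0.049) without that array; the call ended after either scaling and without scrambled shRNA replicate 2 or any of the 3 knockdown replicates. PYCR1 (proline), PCK2 (mitochondrial gluconeogenesis), BCAT1 (branched-chain amino acids) and CBS (cystathionine) had no call. CBS was the one member with its lowest group mean in knockdown, at 9.76 ± 0.08, against 9.98 ± 0.05 with scrambled shRNA (SD, n = 3 each), a log2 difference of -0.22 (SE 0.0751, adjusted p = 0.0724).

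Of the 6 transporters, SLC7A11 differed most. SLC7A11 is the cystine carrier subunit of system xc-, which feeds glutathione synthesis. SLC7A11 read 7.94, 7.76 and 7.78 with overexpression, against 7.76, 7.54 and 7.82 with empty vector, and 8.54, 8.37 and 8.24 with knockdown, against 8.55, 8.61 and 8.49 with scrambled shRNA. All 6 lentiviral arrays lay above all 6 nucleofected arrays, and groups overlapped within each kind of delivery. It exceeded empty vector by 0.85 (SE 0.093, 1.8-fold, adjusted p = 6.18e-05) with scrambled shRNA and by 0.68 (SE 0.093, 1.6-fold, adjusted p = 0.00312) with knockdown, and both calls held without each of the 6 arrays compared. Its log2 change was 0.12 (95% interval -0.08 to 0.32) with overexpression and -0.16 (95% interval -0.37 to 0.04) with knockdown against scrambled shRNA, neither past the threshold. A second probe set gave 0.57 for scrambled shRNA minus empty vector and 0.47 for knockdown minus empty vector, and the dimmest one gave 0.13 and 0.20 with no call.

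SLC7A5, the leucine carrier LAT1, read 11.57, 11.56 and 11.39 with overexpression, against 11.51, 11.33 and 11.36 with empty vector, and 11.55, 11.53 and 11.48 with knockdown, against 11.62, 11.66 and 11.65 with scrambled shRNA. The scrambled shRNA arrays lay above all others. Scrambled shRNA exceeded empty vector by 0.24 (SE 0.0683, adjusted p = 0.0178), which did not pass without empty vector replicate 2 or 3. SLC7A1, the arginine and lysine carrier CAT1, read 10.66, 10.59 and 10.59 with overexpression, against 10.47, 10.48 and 10.40 with empty vector, and 10.64, 10.45 and 10.54 with knockdown, against 10.75, 10.72 and 10.74 with scrambled shRNA. Its scrambled shRNA arrays were also highest, and exceeded empty vector by 0.29 (SE 0.0605, adjusted p = 0.00405), while the mean of its 5 probe sets gave no call. SLC3A2, the partner chain of SLC7A5 and SLC7A11, and the neutral amino acid carriers SLC1A4 and SLC1A5 had no call. SLC1A5 was the one member with its highest group mean in overexpression, at 9.58 ± 0.06, against 9.49 ± 0.05 with empty vector (SD, n = 3 each).

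**Figure D4:**
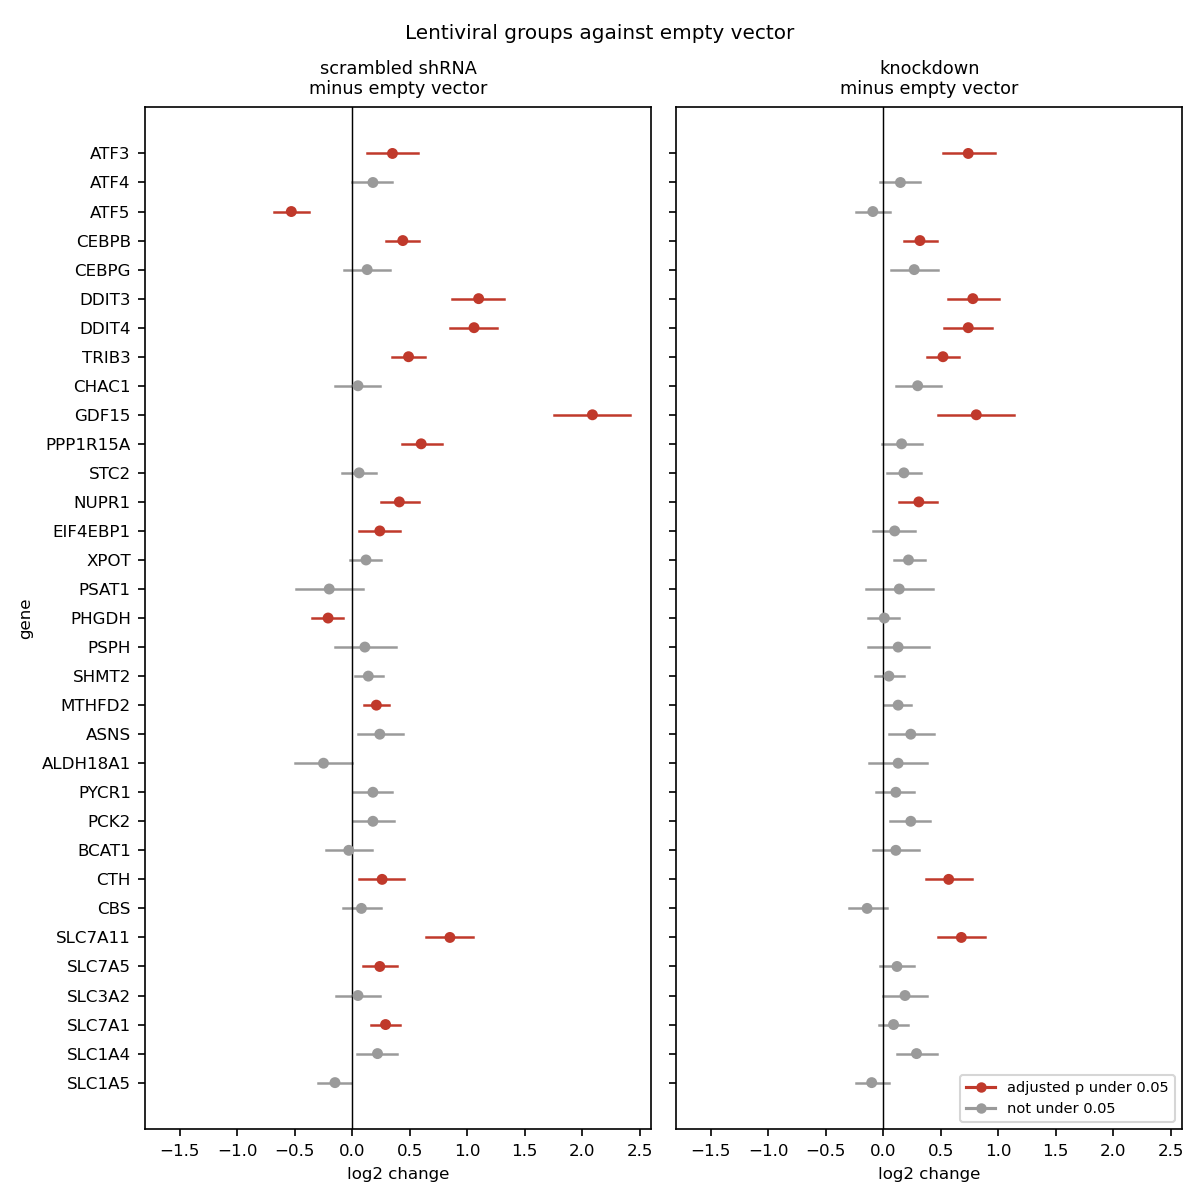
Log2 change of each member with its 95% interval, on the left for scrambled shRNA minus empty vector and on the right for knockdown minus empty vector, which share the empty vector arrays; red marks adjusted p under 0.05. GDF15, DDIT3, DDIT4 and SLC7A11 lie farthest right on the left, and no member lies left of 0 in red on the right.

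The calls against empty vector were counted by role. In scrambled shRNA minus empty vector, 3 of 6 transcription factors rose and 1 fell, 6 of 9 effectors rose and 0 fell, 1 of 5 serine and one-carbon enzymes rose and 1 fell, 1 of 7 other enzymes rose, and 3 of 6 transporters rose. In knockdown minus empty vector the counts that rose were 3 factors, 4 effectors, 0 serine and one-carbon enzymes, 1 other enzyme and 1 transporter, and 0 members of any role fell. Of all genes, 16.2% rose and 15.3% fell with scrambled shRNA, and 3.02% rose and 1.52% fell with knockdown, each against empty vector. The median over each role, centred gene by gene, placed all 6 lentiviral arrays above all 6 nucleofected arrays for transcription factors (0.04 to 0.24, against -0.26 to 0.00) and for effectors (0.08 to 0.35, against -0.24 to -0.06). The other amino acid enzymes were likewise apart (0.03 to 0.19, against -0.24 to 0.02). For transporters the ranges met at 0.02 (0.02 to 0.15, against -0.20 to 0.02), and for serine and one-carbon enzymes they overlapped (0.01 to 0.13, against -0.14 to 0.02). The difference between roles was not tested.

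**Figure D5:**
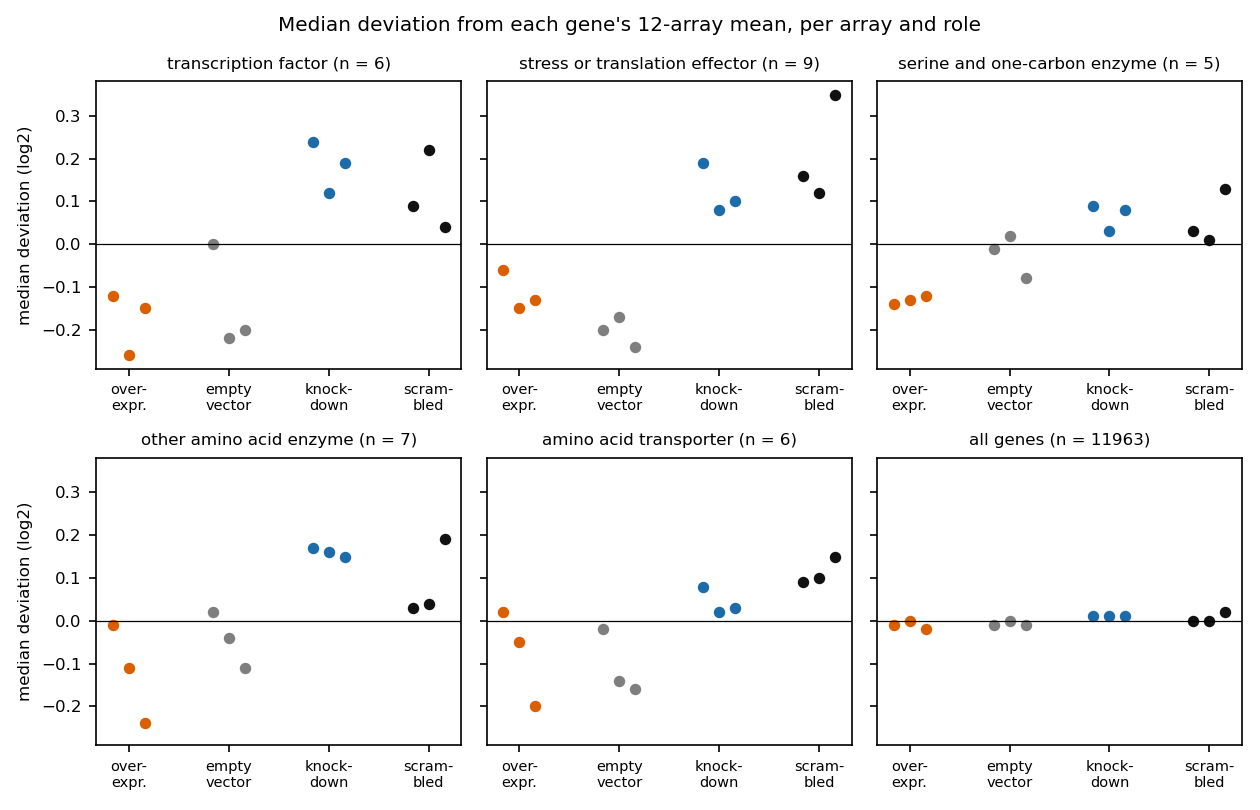
Median over the genes of each role of the log2 value minus the gene's mean over 12 arrays, 1 point per array, with groups side by side. The lentiviral arrays lie above 0 for every role; the nucleofected arrays lie at or below 0 for transcription factors and effectors, and reach 0.02 for both kinds of enzyme and for transporters.

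The effect of overexpression minus that of knockdown was tested as one contrast, with each effect taken against its own control. It passed for 11 members or 33.3%, against 20.4% of all genes (8.15% positive and 12.3% negative): GDF15, PPP1R15A, DDIT4, DDIT3, SLC7A1 and CEBPB were positive, and ATF5, ATF3, CTH, PHGDH and STC2 negative. The largest was GDF15, at 2.23 (SE 0.214, adjusted p = 2.72e-05), followed by ATF5, at -0.89 (SE 0.0981, adjusted p = 7.2e-05), and PPP1R15A, at 0.77 (SE 0.115, adjusted p = 0.00065). DDIT4 gave 0.53 (SE 0.134, adjusted p = 0.0146) and ATF3 -0.74 (SE 0.144, adjusted p = 0.00307). The calls of STC2, CEBPB and DDIT3 ended without 11, 9 and 7 of the 12 arrays in turn. That of SLC7A1 ended with the mean of all its probe sets, and that of PHGDH after quantile normalization.

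Genes around the pathway were counted from a list of 92, of which 78 were measured. In scrambled shRNA minus empty vector 14 rose and 11 fell, or 32.1% called, against 31.5% of all genes. In knockdown minus empty vector 2 rose and 3 fell, or 6.41%, against 4.54%. With knockdown against scrambled shRNA 10 rose and 8 fell, or 23.1%, against 14.0%, and with overexpression 4 rose and 6 fell, or 12.8%, against 6.98%. Their median log2 change was 0.01 for scrambled shRNA minus empty vector and 0.04 for knockdown minus empty vector, against 0.18 in both for the members. The part of the list on the integrated stress response had 14 measured genes: kinases, subunits of initiation factors and others such as IMPACT. Of these 14, 1 rose and 2 fell with scrambled shRNA against empty vector, where 31.5% of all genes were called. EIF2AK1 rose and EIF2B1 and EIF2B4 fell, at 0.23, -0.27 and -0.27 (adjusted p = 0.0168, 0.00696 and 0.00258). These 3 were named after their values were seen. With knockdown against empty vector 1 of the 14 rose and 0 fell, where 4.54% of all genes were called. The gene that rose was EIF2AK3, which encodes PERK, at 0.32 (SE 0.0745, adjusted p = 0.035). It too was named with its value known.

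The related genes that passed by the largest size were of several kinds. With overexpression GCLM, a subunit of the glutathione-synthesis enzyme, stood at -0.73 (SE 0.0896, adjusted p = 0.000594), the glutamine carrier SLC38A2 at 0.40, CEBPA at -0.39 and the ornithine aminotransferase OAT at -0.38. With knockdown against scrambled shRNA the quinone reductase NQO1 stood at 0.58 (SE 0.102, adjusted p = 0.00282), CEBPA at 0.43, SAR1B, of the mTORC1 amino acid sensing group, at 0.41 and CEBPD at -0.40. With scrambled shRNA against empty vector the arginase ARG2 stood at 0.66, ASS1 at 0.57, the transporter SLC7A6 at -0.52 and GLUL, glutamine synthetase, at 0.49. With knockdown against empty vector ARG2 stood at 0.75 (SE 0.124, adjusted p = 0.00769) and DEPDC5, of the mTORC1 amino acid sensing group, at -0.35.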

How the data were processed

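Gene expression was measured in 12 samples of K562 cells, 3 in each of 4 groups taken from the sample labels. The authors deposited 1 log2 value per probe set and array; the log2 scale was inferred from the range of the values, because neither headers nor labels name it. The submitters' processing notes name Affymetrix Expression Console; how it summarised probes, and in which version, is not given in the sources used here. Array medians of these log2 values were nearly equal as deposited. Scanner files, detection calls and batches were not used here, and precision is limited by the number of arrays.

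Of 22277 probe sets, 62 controls were left out. The platform annotation gave 1 symbol to 19064, several to 1043 and none to 2108, and only those with 1 symbol were named; 19052 were found by gene identifier in a RefSeq table (GRCh38.p14), 12 kept the symbol as given and 0 changed. The brightest probe set was kept per gene, which left 11963 genes; 11 members had more than 1 probe set.

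All genes were fitted with limma 3.58.1 in R 4.3.3 (lmFit, eBayes) with 1 coefficient per group, which leaves 8 residual degrees of freedom. The 5 contrasts were tested two-sided, with Benjamini-Hochberg adjustment over all genes at 0.05. Alternatives were quantile normalization, median centring, averaging all probe sets of a gene, dropping the dimmest 40% of genes, array weights, a fit on 6 arrays, a replicate block, a trended robust prior and leaving out each array. Tested on simulated data with 200 of 11963 genes changed, the fit recovered 42% of changes of 0.3 log2 with overexpression and 34% with knockdown, and 84% and 88% at 0.6. Per-array values are given for members past the threshold in any comparison and for ATF4, DDIT3, ASNS, TRIB3 and CHAC1; up to 6 related genes were named per comparison by size. The members and lists were chosen with earlier results of these data known. Promoters came from RefSeq and were searched with Python 3.11.15; figures were drawn with matplotlib 3.10.9.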

Additional observations from a re-analysis of the deposited data

How the results depend on the processing

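With 3 arrays per group, changes of 0.3 log2 were often missed on simulated data, so a member without a call may still differ. The simulation changed 200 genes, fewer than the 835 and 1677 called with overexpression and knockdown. Because the adjustment depends on how many genes change, the share recovered need not hold for these data. Over all alternatives, 3262 values of single members were compared with those reported; none reversed a call, 134 lost the threshold and 90 gained it, and 48 changed sign where neither value passed. Of 47 calls, 27 held under every alternative in which they were tested. With overexpression the 3 members called became 5 with the trended robust prior and 6 with array weights. Over all genes 1133 and 1550 were called there, against 835. With knockdown against empty vector the 9 became 15 with array weights, where 1575 of all genes were called, against 543. Leaving out each of the 12 arrays in turn gave 2 to 3 members called with overexpression and 3 to 8 with knockdown against scrambled shRNA. Over all genes 380 to 1060 and 1134 to 1629 were called. The members called were 12 to 16 for scrambled shRNA minus empty vector, 6 to 10 with knockdown against empty vector and 8 to 12 for the difference of effects. Over all genes these counts were 2593 to 3829, 123 to 758 and 1864 to 2421. The split of the members in the difference, 6 up and 5 down, became 8 up and 4 down after median centring and 7 up and 4 down after quantile normalization. Over all genes 2479 and 2535 were called after these scalings, against 2442. Over all genes, 835 called with overexpression became 1550 with array weights, 380 without empty vector replicate 2, and 468 and 470 without overexpression replicates 2 and 3. With knockdown against scrambled shRNA, 1677 became 1018 in the fit on 6 arrays, which has fewer samples. With knockdown against empty vector, 543 became 241 in the fit on 6 arrays, 878 with the trended prior, 1575 with array weights, 123 and 184 without empty vector replicates 2 and 3, and 336, 171 and 166 without knockdown replicates 1, 2 and 3. The cause was not tested. The main fit did not take replicate numbers as pairs. In deviations from group means, 10 of 18 same-number pairs of arrays correlated over 0.1 (range -0.115 to 0.395). Pairs with different numbers ranged from -0.376 to 0.272, so the correlations give no ground for ignoring a pairing. Whether same-number arrays belong together was not tested. With a replicate block the members called were 4 with overexpression and 10 with knockdown against scrambled shRNA, with 877 and 1891 of all genes. They were 17 for scrambled shRNA minus empty vector, 9 with knockdown against empty vector and 12 for the difference. Over all genes these last counts were 4106, 647 and 2630.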
